A study of Mus musculus with 2 samples.

Results

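The 36 genes described here encode the machinery that puts peptides on the cell surface for T cells, and they were read in white blood cells sorted from the lungs of urethane-treated mice. They were chosen by name from a fixed list, 12 for the class II pathway and 24 for the class I pathway, out of 55401 genes in the count matrix, and all 36 were found. By the labels, CD45+ cells (CD45 is found on the surface of nearly all white blood cells) were sorted live from digested lung 7 weeks after the first dose of urethane, a carcinogen that induces lung tumours, from 1 WT and 1 Siah1a/2 KO sample. Siah1a and Siah2 encode ubiquitin ligases, and the labels name no strain, age or number of animals. The matrix holds 2 libraries, told apart by the ending of the cell barcode, and no label ties an ending to a genotype. They are called library 1 and library 2, and no comparison of genotypes was made. With 1 library of each kind, a difference between them has no replicate check. The intervals given with values are exact, at 95%, and cover only the error of counting UMIs.

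MHC class II molecules are pairs of an alpha and a beta chain (H2-Aa with H2-Ab1, and in some haplotypes an E pair that includes H2-Eb1). They are held by the invariant chain Cd74 until H2-DM exchanges a fragment of it for a peptide made in the endosome, and they are built mainly by dendritic cells, B cells and macrophages under the master regulator Ciita. MHC class I heavy chains (H2-K1, H2-D1) pair with B2m in nearly every nucleated cell. Their peptides come from the proteasome, enter the endoplasmic reticulum through the transporter Tap1 and Tap2, and are loaded with the help of Tapbp, Calr, Canx and Pdia3 under the regulator Nlrc5.

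In the mouse genome (GENCODE M21, build GRCm38), 9 of the 12 class II genes and 13 of the 24 class I genes lie on chromosome 17, in the MHC. Tap2 lies at chr17:34203527-34216321, and among the listed genes Psmb9, Tap1 and Psmb8 precede it in that order and H2-Ob follows. The pair H2-Aa and H2-Ab1 occupies chr17:34282744-34287823 and chr17:34257689-34269419, and H2-Q6 and H2-Q7 lie next to each other at chr17:35424850-35430055 and chr17:35439155-35443773.

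The DNA before 6 of these start sites is shown because the genes fall into the expression groups described below. H2-Aa and H2-Eb1 stand for the chains shared by all class II-high cells. H2-DMb1 and H2-DMb2 stand for neighbouring copies whose ratio differed by cell type. H2-D1 stands for the broadly read class I heavy chains, and Tap1 for a start region shared with Psmb9. The sequences are RefSeq promoter entries on GRCm38.p6, 5′ to 3′ on the gene's strand and ending 1 base before the start site. Capitals mark the letters CTGATTGG or CCAAT on either strand, known as the Y box and its core, and AACNGATG on either strand, a core of the X box. The X box letters were chosen after the windows had been read, and each Y box match also holds a CCAAT match.
H2-Aa, chr17:34287824-34287973, minus strand: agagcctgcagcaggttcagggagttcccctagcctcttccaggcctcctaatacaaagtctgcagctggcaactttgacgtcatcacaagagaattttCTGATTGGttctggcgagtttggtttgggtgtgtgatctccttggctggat
H2-Eb1, chr17:34305717-34305866, plus strand: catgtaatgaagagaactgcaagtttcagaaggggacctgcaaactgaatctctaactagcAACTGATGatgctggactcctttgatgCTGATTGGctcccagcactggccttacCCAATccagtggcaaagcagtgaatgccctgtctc
H2-DMb1, chr17:34153041-34153190, plus strand: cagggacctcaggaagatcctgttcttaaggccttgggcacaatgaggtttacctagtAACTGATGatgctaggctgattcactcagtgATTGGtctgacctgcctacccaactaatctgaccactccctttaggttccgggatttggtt
H2-DMb2, chr17:34145099-34145248, plus strand: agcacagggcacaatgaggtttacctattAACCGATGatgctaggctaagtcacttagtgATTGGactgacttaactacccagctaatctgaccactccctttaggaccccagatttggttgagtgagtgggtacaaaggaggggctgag
H2-D1, chr17:35262944-35263093, plus strand: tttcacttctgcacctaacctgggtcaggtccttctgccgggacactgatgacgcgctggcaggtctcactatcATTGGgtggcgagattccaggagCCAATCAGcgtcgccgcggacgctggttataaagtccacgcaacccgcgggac
Tap1, chr17:34187331-34187555, plus strand: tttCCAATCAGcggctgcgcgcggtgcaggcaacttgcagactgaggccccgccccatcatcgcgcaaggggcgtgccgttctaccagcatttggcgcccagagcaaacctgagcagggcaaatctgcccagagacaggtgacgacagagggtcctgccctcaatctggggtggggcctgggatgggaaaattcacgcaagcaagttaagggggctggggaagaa
The last of these is the whole stretch between the Tap1 and Psmb9 start sites, which lie 226 bases apart and are read in opposite directions.

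Windows of 300 bases were found for 9 of the 12 class II genes and 20 of the 24 class I genes. The Y box letters stood in 4 class II genes, H2-Aa, H2-Eb1, H2-Eb2 and H2-Oa, and in 8 class I genes, Canx, H2-D1, H2-K1, H2-Q6, H2-Q7, H2-T23, Psmb9 and Tap1, against 4.10% of 32851 windows. The windows of Psmb9 and Tap1 overlap and their Y box matches are the same bases, so 1 site is counted in both genes. The Y box began 51 bases before the start site in H2-Aa, 62 in H2-Eb1 and 53 in H2-D1. In H2-K1, which had 2 windows, it began 8 bases after one start site and 6 before the other. The shorter CCAAT stood in 8 class II and 15 class I genes, against 37.4% of all windows, with the Psmb9 and Tap1 site again counted in both. AACNGATG stood in 4 class II genes, H2-DMb1, H2-DMb2, H2-Eb1 and H2-Eb2, and in 0 class I genes, against 2.32% of all windows. The interferon-type letters GAAANNGAA stood in 0 class II genes and in 5 class I genes, B2m, Erap1, H2-T22, H2-T23 and Psme1, against 8.56%, and TTCNNNGAA stood in 1 class II gene, H2-DMb2, and in 2 class I genes, H2-M3 and Psmb8, against 8.30%. Both strands were searched. A match is a description of letters, not of a bound site.

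Library 1 held 8522 barcodes and library 2 held 6479, with 86227008 and 59459790 UMIs (unique molecules counted). After leaving out cells with under 500 genes or over 10% mitochondrial UMIs, 8066 and 6113 cells were kept, and the libraries shared 11 barcode sequences. Cells were sorted into 20 gates by counts of marker genes, none of them a member. Of the kept cells, 565 and 421 with markers of several lineages were left out as mixed. A further 701 and 433 kept cells passed no gate and enter no gate level. Macrophages were gated by the complement genes C1qa, C1qb and C1qc and then divided by Cxcl9, by Mrc1, Folr2 and Pf4, or by Arg1, and a cell that passed for both Cxcl9 and Mrc1/Folr2/Pf4 was placed in the latter gate. The genes Marco, Car4, Siglecf and Ear1, which mark alveolar macrophages, had 60 and 69 UMIs in all kept cells, few against the C1q macrophages read here. In the 17 gates with at least 50 cells in each library, cells per gate ranged from 68 (migratory dendritic cells) to 2212 (CD8 T cells) in library 1 and from 51 (B cells) to 1925 in library 2. Levels are CPM, the UMIs of a gene scaled to a common total of UMIs per gate, the usual counts per 1e6. Each UMI stands for 1 molecule, and levels were not scaled by gene length. How reads that fit several genes were counted is not given, which limits comparison between genes of similar sequence.

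Class II transcripts separated the cell types by a wide margin, and cDC2, the dendritic cells marked by Cd209a and Clec10a, stood highest. The 12 genes together reached 56660 CPM (56222 to 57100.2) in library 1 and 54674 CPM (54226 to 55126) in library 2 in cDC2. Macrophages marked by Cxcl9, an interferon-induced chemokine, followed at 47007 and 47632 CPM, cDC1 at 50379 and 42382 CPM over only 40 and 12 cells, and the remaining C1q macrophages at 40734 and 42065 CPM. B cells stood at 33443 and 31220.1 CPM. Cxcl9 macrophages and cDC1 changed places between the libraries, so their order is not settled, whereas cDC2 stood above both in both libraries with intervals that did not overlap.

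A middle group followed. Migratory dendritic cells, marked by Ccr7, had 24228 and 23764 CPM, Mrc1/Folr2/Pf4 macrophages 21575 and 30514 CPM, and classical monocytes 21122 and 21694 CPM. Plasmacytoid dendritic cells (21 and 22 cells) had 11013 and 12979 CPM, monocytes marked by Inhba and Thbs1 8362 and 12860.2 CPM, and non-classical monocytes 7058 and 8741 CPM. The lowest gates were NK cells at 698 and 524 CPM, mast cells or basophils at 594 and 1149.8 CPM and CD8 T cells at 1037 and 1291 CPM. Foxp3 T cells stood at 4071 and 4373 CPM, above every other T cell gate in both libraries.

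**Figure D1:**
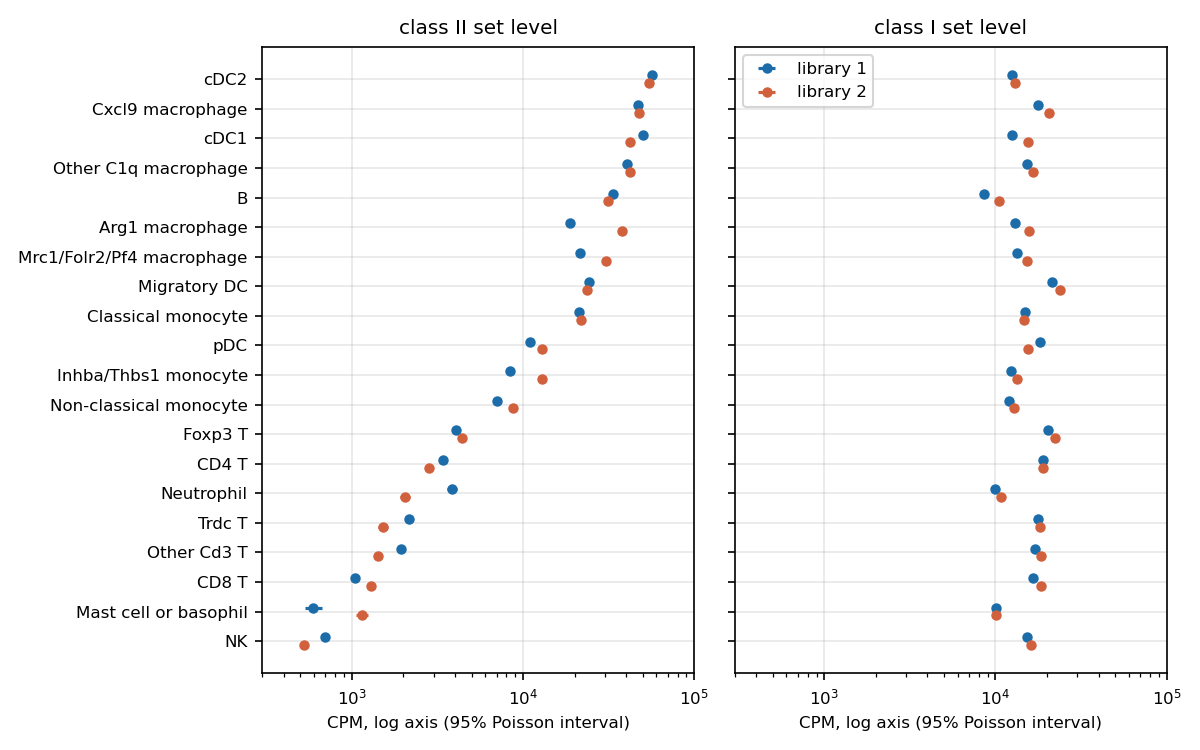
Summed level of the 12 class II genes (left) and the 24 class I genes (right) in 20 gates, in CPM on a log axis, with library 1 in blue, library 2 in orange and 95% Poisson intervals as bars, most of them narrower than the points. Class II levels run from 524 CPM in NK cells of library 2 to 56660 CPM in cDC2 of library 1, and class I levels from 8519 CPM in B cells to 23771 CPM in migratory dendritic cells.

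Within the class II set, Cd74 was the most abundant gene in cDC2, at 25717 and 24373 CPM, and H2-Aa, H2-Ab1 and H2-Eb1 followed at 9342 and 9171, 9333 and 9063, and 7379 and 7245 CPM. All 4 were highest in cDC2 in both libraries among the 17 gates. So were H2-DMa (983 and 1130.1 CPM) and H2-DMb1 (1343 and 1272 CPM), which encode the peptide exchanger, Ifi30 (1907 and 1762 CPM), a thiol reductase that unfolds endosomal proteins, and Ciita (229 and 224 CPM). The few cDC1, outside the 17, came close to cDC2 for H2-Ab1 in library 1, at 9330.0 CPM, and had 7861 CPM in library 2. For H2-Eb1 they stood above cDC2 in library 1, on 7237 of 954662 UMIs, but not in library 2, on 2299 of 325165 UMIs. The chains did not keep a fixed ratio. H2-Ab1 was read 0.999 and 0.988 times as often as H2-Aa in cDC2, 1.12 and 0.996 times in all macrophages, but 0.653 and 0.665 times in B cells and 0.477 and 0.512 times in migratory dendritic cells. The ratio in B cells and migratory dendritic cells was thus lower in each library than in either of the other gates.

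Ciita and the class II level did not give the same order in the middle group. Migratory dendritic cells had 32.7 and 46.8 CPM of Ciita, and Mrc1/Folr2/Pf4 macrophages 48.1 and 55.8 CPM, against 86.9 and 82.3 CPM in classical monocytes, whose class II level was lower than that of either gate in each library. In cells thinned to 3000 UMIs, a Ciita UMI was found in 44.0% and 42.1% of cDC2 but in 5.97% (1.65 to 14.6) and 7.14% (1.98 to 17.3) of migratory dendritic cells. NK cells, which should lack the gene, had 1.07% and 0.864%. Unthinned, the shares were 77.4% and 78.9% in cDC2, 19.1% and 15.8% in migratory dendritic cells, and 3.75% and 2.81% in NK cells. The median depth was 11145 and 11265 UMIs in cDC2, 12448 and 11465 in migratory dendritic cells, and 10558 and 9127 in NK cells. Class II in the migratory gate was also spread widely over cells. The median cell held 1.52% and 0.761% of its UMIs in the set, and the cell at the 75th percentile held 4.17% and 3.68%.

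The genes of the DM modulator were highest in B cells. H2-Oa and H2-Ob, which together form that modulator of the peptide exchanger, stood at 348 and 319 CPM and at 439 and 540.3 CPM in B cells, their highest gate in both libraries among the 17. In cDC2 they stood at 132 and 155 CPM and at 41.5 and 51.9 CPM, and in Mrc1/Folr2/Pf4 macrophages at 2.16 and 1.56 CPM and at 4.33 and 4.69 CPM. Thinned to 3000 UMIs, 90% (80.5 to 95.9) and 87.9% (71.8 to 96.6) of B cells held a UMI of either gene, against 40% and 41.7% of the few cDC1, 33% and 34.2% of cDC2, 23.8% and 27.3% of the few plasmacytoid dendritic cells, 2.61% and 3.05% of macrophages and a background of 1.90% and 2.59% in NK cells. The unthinned shares were 91.1% and 94.1% of B cells, 90% and 83.3% of cDC1, 54.8% and 56.6% of cDC2, 47.6% and 63.6% of plasmacytoid dendritic cells, 9.89% and 9.65% of macrophages and 6.76% and 5.71% of NK cells. B cells were shallow, with a median of 3208 and 3286 UMIs, against 22162 and 26654 in cDC1.

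The neighbouring copies H2-DMb1 and H2-DMb2, both beta chains of DM, whose start regions are printed above, were read in very different ratios. B cells read H2-DMb2 at 664 and 529.5 CPM and H2-DMb1 at 190.0 and 119 CPM, a ratio of 3.49 and 4.45. In all macrophages the ratio was 0.0338 and 0.0340, in classical monocytes 0.0351 and 0.0351, and in cDC2 0.185 and 0.176. H2-DMb2 itself stood at 248 and 224 CPM in cDC2, its next highest gate after B cells among the 17, so both copies were high there. Migratory dendritic cells had a ratio between those of B cells and cDC2, at 1.82 and 1.02, on 104 and 85 UMIs of H2-DMb2 and 57 and 83 UMIs of H2-DMb1. The copies are similar in sequence, and no source used here gives how reads that fit both were counted. H2-Eb2, a sparsely read beta chain, was highest in migratory dendritic cells and B cells, at 131 (108 to 156) and 134 (108 to 165) CPM in migratory dendritic cells and 96.3 (67.5 to 133) and 108 (66.0 to 167) CPM in B cells, and it had 0 UMIs in the Mrc1/Folr2/Pf4 macrophages of both libraries.

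**Figure D2:**
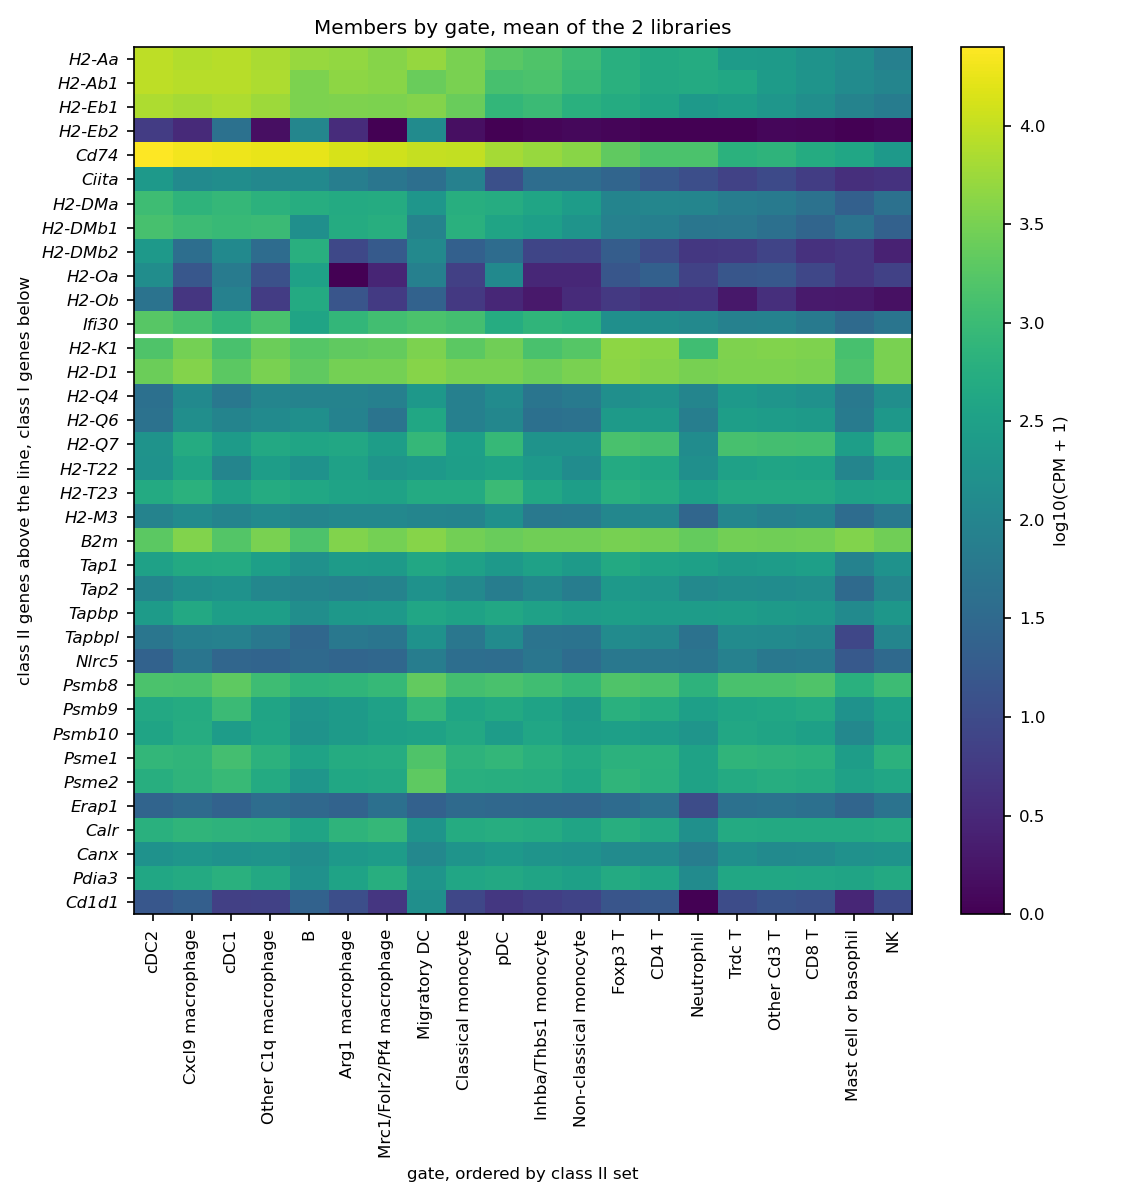
Level of each of the 36 genes in each of 20 gates, as log10(CPM + 1) of the mean of the libraries, with gates ordered from left to right by class II level and a white line between the class II and class I genes. H2-Eb2, H2-DMb2, H2-Oa and H2-Ob depart from the left-to-right gradient of the other class II genes, with B cells at 348 and 319 CPM for H2-Oa, and most class I genes vary less along the row.

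Class I transcripts varied far less between gates. The summed level of the 24 genes was highest in migratory dendritic cells, at 21276 (20978 to 21577) and 23771 (23407 to 24139) CPM, then in Foxp3 T cells at 20305 (20155 to 20457) and 22177 (21928 to 22429) CPM, and the intervals of these gates did not overlap in either library. B cells were among the lowest, at 8519 and 10547 CPM, with mast cells or basophils at 10108 and 10117 CPM and neutrophils at 9885 and 10815 CPM. The order of these last gates differed between the libraries. NK cells, lowest for class II, stood at 15355 and 16152 CPM, and cDC2, highest for class II, at 12463 and 12928 CPM.

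Both heavy chains were read most in Foxp3 T cells among the 17 gates, and the median of these gates for H2-D1 was 3017 and 3564 CPM. H2-K1 reached 4427 and 4678 CPM in Foxp3 T cells and was lowest in neutrophils, at 1039 and 1196 CPM. H2-D1 reached 3913 and 4616 CPM in Foxp3 T cells. The balance of the heavy chains differed by lineage, with H2-K1 per H2-D1 at 1.13 and 1.04 in CD8 T cells, 0.831 and 0.728 in all macrophages, 0.643 and 0.545 in classical monocytes and 0.402 and 0.323 in neutrophils. This ratio was lower in library 2 in each of these gates, since H2-D1 was higher in library 2 in 17 of 17 gates (log2 ratio 0.01 to 0.52) and H2-K1 stayed between -0.13 and 0.25 in all 17. B2m, the shared light chain, had 3904 and 3455 CPM in mast cells or basophils, 3703 and 4177 CPM in migratory dendritic cells and 1301 and 1707 CPM in B cells, its lowest gate. H2-K1 and H2-D1 are similar in sequence, so reads could be divided between them.

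Several non-classical heavy chains were also highest in a T cell gate among the 17. H2-Q7 stood at 1307 and 1467 CPM in Foxp3 T cells and 134 and 136 CPM in neutrophils, H2-T22 at 441 and 552 CPM in Foxp3 T cells, and H2-Q4 at 241 and 244 CPM in Trdc T cells (gamma-delta T cells). H2-Q6 was highest in migratory dendritic cells, at 437 and 397 CPM. H2-T23, which encodes Qa-1, reached 543 and 745 CPM in Cxcl9 macrophages, and H2-M3, which presents formylated peptides, stood at 128 and 132 CPM there. The H2-Q and H2-T genes are near-identical copies of one another in part, and their separate levels are uncertain for that reason. Cd1d1, which presents lipids to NKT cells, stood apart from the set: it had 178 (151 to 207) and 131 (106 to 162) CPM in migratory dendritic cells and, in the remaining 16 of the 17 gates, at most 17 CPM (CD4 T cells) in library 1 and 37.8 CPM (B cells) in library 2.

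Of the genes that supply and load peptides, ranked here among the 17 gates, 5 were highest in migratory dendritic cells. They led the 17 gates in both libraries for the immunoproteasome subunits Psmb8 (1988 and 2365 CPM) and Psmb9 (741 and 976 CPM), for the proteasome activator genes Psme1 (1499 and 1565 CPM) and Psme2 (2079 and 2045 CPM), and for the loading editor Tapbpl (174 and 175 CPM). The few cDC1, outside the 17, had a higher Psmb9 level in library 1, on 947 of 954662 UMIs. In library 2 their level was similar, on 313 of 325165 UMIs. Psme2 was 161 and 249 CPM in B cells, its lowest gate. The interferon-induced Psmb8 was read 12 and 10.8 times as often as Psmb5, the subunit it replaces, in migratory dendritic cells, against 4.51 and 5.11 times in all macrophages and 6.48 and 7.10 times in CD8 T cells. Psmb10, the third immunoproteasome subunit, and Tapbp, which bridges the transporter to class I, were highest in Cxcl9 macrophages, at 501 and 543 CPM and at 409 and 489 CPM. Among the 17 gates, Tap2 was highest in Foxp3 T cells, at 171 and 281 CPM. Tap1 was highest among them in Foxp3 T cells of library 1, at 440.4 CPM, and in Cxcl9 macrophages of library 2, at 526 CPM. The few cDC1, outside the 17, had a higher Tap1 level in library 1, on 453 of 954662 UMIs. The general chaperones Calr, Canx and Pdia3 were highest in Mrc1/Folr2/Pf4 macrophages, at 863 and 820.4, 279.9 and 253, and 587 and 564 CPM, and in migratory dendritic cells they were low, at 183 and 200.2, 109 and 111, and 182 and 212 CPM. Erap1, which trims peptides, stayed at or below 50 CPM in all 17 gates, and Nlrc5 peaked at 85.9 and 84.6 CPM in Trdc T cells.

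Among genes outside the list, those whose level over the 17 gates was most like the summed H2-Aa, H2-Ab1, H2-Eb1 and Cd74 were Plekho1, Ctsh, Ly86, Fgd2, Cd40, H2aw, Scpep1, Gm6377, Cnpy3 and Gdi2, by Pearson's r of log2(CPM + 1) among 5932 genes. Plekho1 had r of 0.919 and 0.954 in the libraries, and Gdi2, the last of the 10, 0.874 and 0.910. Ciita, a member, had 0.966 and 0.972, and Rfx5, a DNA-binding partner in the class II complex, 0.112 and 0.092. Rfx5 had at least 100 UMIs over both libraries in only 2 of the 17 gates, so its r rests mostly on few UMIs. Among those most like the summed H2-K1, H2-D1 and B2m were AW112010, Ccl5, Abracl, Pfn1, Rnaset2b, Sugt1, Plaat3, Fnbp1 and Myl12a, with r of 0.887 and 0.872 for AW112010, and Nlrc5 had 0.631 and 0.559. The gates share a library, differ in depth and include related cell types, so these are descriptions with no test.

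Between the libraries, class II was higher in library 2 in some monocytes and macrophages and was close to equal in cDC2 and Cxcl9 macrophages, where it was among the highest. A gene is called higher here when library 2 was at least 25% above library 1, and lower when it was at least 20% below, with at least 100 UMIs over both libraries. In cDC2, 0 of 11 class II genes and 1 of 19 class I genes, Tap2, were higher in library 2 and 0 were lower, where 12.7% of all tested genes were higher and 12.7% lower. The class II set had a log2 ratio of library 2 over library 1 of -0.05 (-0.07 to -0.04). In Cxcl9 macrophages 0 of 8 class II genes were called, and the set ratio was 0.02 (0.00 to 0.04). Classical monocytes likewise had 0 of 9 class II genes called and a set ratio of 0.04 (0.02 to 0.05).

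In monocytes marked by Inhba and Thbs1, 8 of 8 tested class II genes were higher in library 2 and 0 lower, where 16.3% of all tested genes were higher and 9.49% lower. The members' median log2 ratio was 0.85, against 0.09 over all tested genes, and H2-Eb2, H2-DMb2, H2-Oa and H2-Ob had too few UMIs to be read. H2-Aa stood at 1067 (1034 to 1102) CPM in library 1 and 2019 (1970.1 to 2068) CPM in library 2, a log2 ratio of 0.92 (0.86 to 0.98). The increase extended to the regulator and the loading genes. Ciita had 20.3 (15.9 to 25.6) and 53.6 (45.9 to 62.2) CPM, which is a log2 ratio of 1.39 (0.99 to 1.82). H2-DMb1 had 0.94 (0.81 to 1.07), H2-DMa 0.61 (0.50 to 0.72), Cd74 0.45 (0.42 to 0.48), and Ifi30, the smallest, 0.34 (0.26 to 0.42).

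The difference was larger among the cells with most class II. The median cell held 0.243% of its UMIs in class II genes in library 1 and 0.274% in library 2, while the cell at the 90th percentile held 2.27% and 4.34%. Thinned to 3000 UMIs, 4.38% (2.62 to 6.83) and 13.3% (9.97 to 17.2) of these monocytes held a Ciita UMI, against 1.07% and 0.864% of NK cells, and unthinned 11.6% and 24.7%. The gate itself was not alike in the libraries: Inhba, one of its markers, stood at 198 CPM in library 1 and 52.7 CPM in library 2, and Thbs1, the other, stood at 2925 and 3317 CPM. The part of that difference in the class II ratio was not tested. Class I in this gate was nearly level. Of 23 tested class I genes, 3 were higher in library 2 (Tap2, Tapbpl and Psmb10) and 3 lower (H2-Q4, H2-Q6 and H2-Q7), and the set ratio was 0.10 (0.08 to 0.12).

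**Figure D3:**
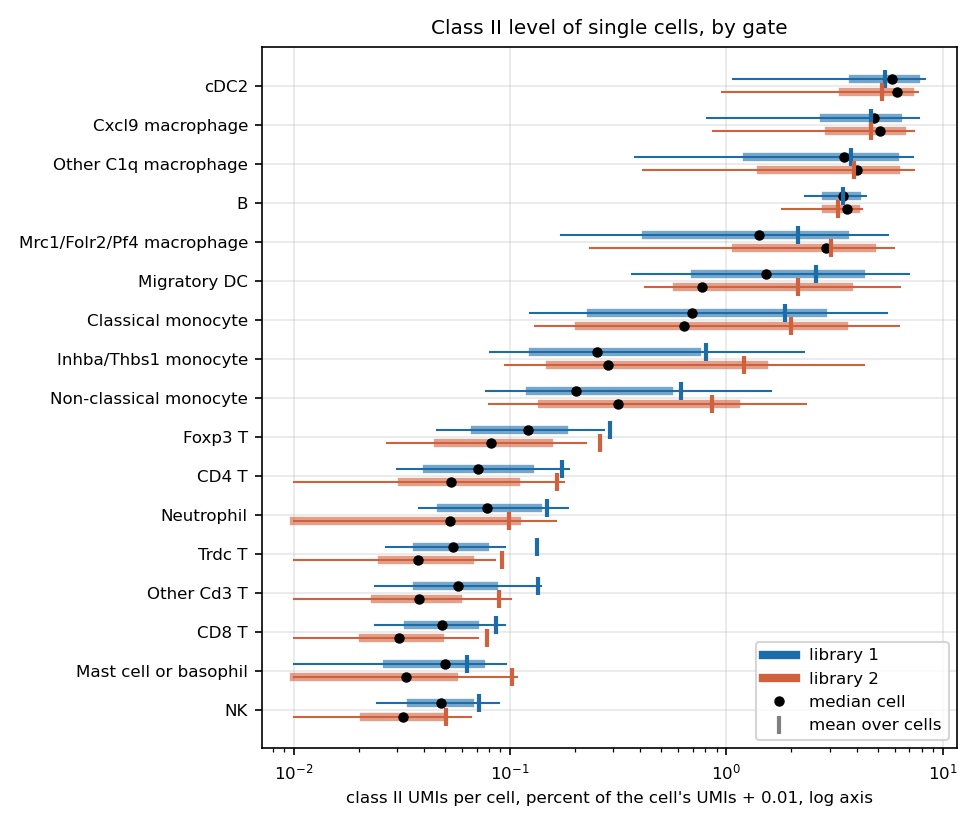
Class II UMIs of single cells as a percent of the cell's UMIs, plus 0.01, on a log axis, for 17 gates, with library 1 in blue and library 2 in orange. Thin lines run from the 10th to the 90th percentile of cells, thick lines from the 25th to the 75th, black points are medians and ticks are means. In Inhba/Thbs1 monocytes the medians nearly meet (0.243% and 0.274%) while the upper ends differ, and in T cell and NK gates the means lie above the thick lines.

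Mrc1/Folr2/Pf4 macrophages, which carry markers of tissue-resident interstitial cells, showed the same direction over more of the gate. Here 6 of 8 tested class II genes were higher in library 2 and 0 lower, where 12.4% of all tested genes were higher and 11.4% lower, with a median log2 ratio of 0.45 against 0.02 over all tested genes. H2-Aa stood at 2982 (2926 to 3038) and 5049 (4949 to 5150.3) CPM, which is a log2 ratio of 0.76 (0.72 to 0.80). H2-Eb1 had 0.74 (0.70 to 0.78), H2-Ab1 0.61 (0.57 to 0.64) and Cd74 0.37 (0.35 to 0.40). The genes not called were Ifi30, at -0.05 (-0.12 to 0.03), and Ciita, at 0.21 (-0.15 to 0.57) on 178 and 107 UMIs. The median cell held 1.41% and 2.88% of its UMIs in the set. Mrc1 itself was level, at 663 and 688 CPM, and Cxcl9, which marked the macrophages with the highest class II level, stood at 677 and 970.5 CPM in this gate. Its part in the result was not tested.

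Non-classical monocytes also had more class II in library 2. There 5 of 7 tested class II genes were higher (H2-Aa, H2-Ab1, H2-Eb1, H2-DMa and H2-DMb1) and 0 lower, where 12.1% of all tested genes were higher and 9.74% lower, with a median log2 ratio of 0.38 against 0.03 over all tested genes. The set ratio was 0.31 (0.27 to 0.35), and H2-Aa had 865 (823 to 908) and 1237 (1164 to 1312) CPM. Of 21 tested class I genes, 2 were higher (H2-M3 and Tap2) and 1 lower (H2-Q6). In gates with few class II UMIs, the set ratio was -0.91 (-1.05 to -0.77) in neutrophils on 919 and 798 UMIs. In mast cells or basophils it was 0.95 (0.75 to 1.16) on 308 and 572 UMIs, but the median cell went the other way. That cell held 0.0401% of its UMIs in class II in library 1 and 0.0231% in library 2, while the mean over cells was 0.0531% and 0.0923%. After thinning, 68.8% and 54.9% of mast cells or basophils held a class II UMI.

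Class I differed less than class II in the Mrc1/Folr2/Pf4 macrophages. In the Mrc1/Folr2/Pf4 gate 4 of 23 tested class I genes were higher in library 2 (H2-D1, H2-T22, H2-T23 and Tap2) and 0 lower, against 12.4% and 11.4% of all tested genes, with a set ratio of 0.20 (0.18 to 0.22). In Cxcl9 macrophages 7 of 22 were higher (H2-D1, H2-Q4, H2-T22, H2-T23, Tap1, Tap2 and Psmb9) and 0 lower, where 15.6% of all tested genes were higher and 11.5% lower. The set ratio there was 0.21 (0.18 to 0.23), in a gate whose class II level was equal. H2-T22 stood at 308 and 442 CPM, with a log2 ratio of 0.52 (0.33 to 0.71), and H2-T23 had 543 and 745 CPM, 0.46 (0.31 to 0.60). In classical monocytes 1 of 23 class I genes was higher (Tap2) and 2 were lower (H2-Q6 and H2-Q7), where 9.95% of all tested genes were higher and 7.74% lower.

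**Figure D4:**
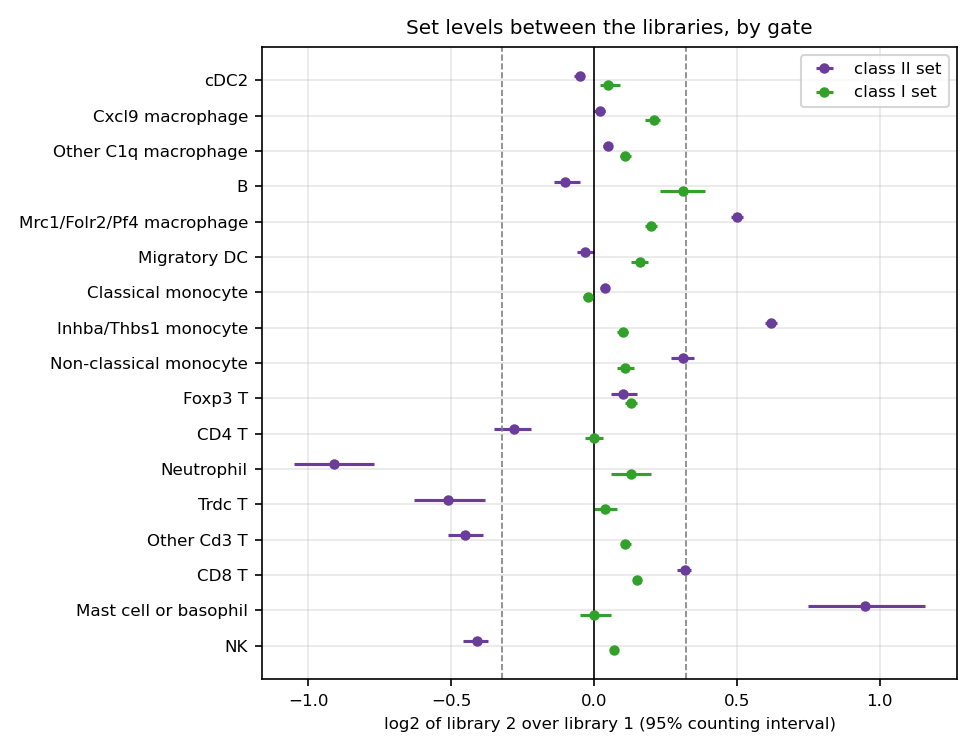
Log2 ratio of library 2 over library 1 of the summed class II genes (purple) and class I genes (green) in 17 gates, with 95% counting intervals as bars, a solid line at no difference and dashed lines at the calling threshold in either direction. Class II lies at 0.62 in Inhba/Thbs1 monocytes, 0.50 in Mrc1/Folr2/Pf4 macrophages and -0.41 in NK cells, and class I stays between -0.02 and 0.31. Class II also lies left of the solid line in neutrophils and in CD4, Trdc and other T cells.

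Class II was low in NK cells and in CD8 T cells, and in NK cells it was lower in library 2 together with macrophage transcripts. In NK cells 0 of 8 tested class II genes were higher in library 2 and 4 were lower (H2-Ab1, H2-Eb1, Cd74 and Ifi30), where 8.12% of all tested genes were higher and 5.56% lower. Cd74 stood at 281 (272 to 289) and 182 (174 to 190.4) CPM there. The macrophage genes C1qa, C1qb and C1qc together were lower in library 2 as well in these NK cells, at 94.0 and 33 CPM, as was Apoe, at 102 and 39.6 CPM. Lower C1qa was not particular to NK cells. C1qa stood at 47.9 and 17.6 CPM in CD8 T cells, 51.4 and 22.3 CPM in Inhba/Thbs1 monocytes and 67.0 and 25.7 CPM in neutrophils. In all macrophages it was nearly level, at 5532 and 5178 CPM. Thinned to 3000 UMIs, 70.4% (67.7 to 73.0) and 55.0% (51.9 to 58.0) of NK cells held a class II UMI and 27.9% and 9.79% held a UMI of a C1q gene, which NK cells should lack. Unthinned, the class II shares were 95.8% and 83.9% and the C1q shares 62.2% and 26.2%. At least 5 class II UMIs were found in 3.05% and 1.82% of thinned NK cells, against 95.3% and 96.2% of thinned macrophages. The part of transcripts from other cells in the NK value was not tested.

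CD8 T cells had 5 of 10 tested class II genes higher in library 2 (H2-Aa, H2-Ab1, H2-Eb1, H2-DMb1 and H2-DMb2) and 0 lower, where 9.50% of all tested genes were higher and 7.62% lower. The summed and the per-cell values had opposite signs. The set ratio from summed UMIs was 0.32 (0.29 to 0.34), yet the median cell held 0.0383% of its UMIs in class II in library 1 and 0.0205% in library 2. With each cell given equal weight the log2 ratio was -0.16, and with each cell thinned to 3000 UMIs it was -0.15. Foxp3 T cells had a set ratio of 0.10 (0.06 to 0.15), while the share with at least 5 class II UMIs after thinning was 33% (27.7 to 38.6) and 16.9% (11.1 to 24.1). Cd74 per C1qa was 48.5 and 108 in Foxp3 T cells, 6.52 and 13.7 in NK cells and 2.84 and 3.28 in all macrophages.

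Tap2 was the member that differed most evenly. Among the 17 gates with at least 50 cells in each library, it was called higher in library 2 in 14 of the 14 with at least 100 UMIs. The log2 ratios ran from 0.48 in NK cells to 1.08 in cDC2, with a median of 0.69. In the few cDC1, outside these 17 gates, Tap2 also had at least 100 UMIs and was not called. Tap2 stood at 85.8 (81.1 to 90.7) and 119 (113 to 126) CPM in NK cells and at 63.6 (49.8 to 80.1) and 135 (113 to 159) CPM in cDC2. CD8 T cells, on 2686 and 3049 UMIs, had 118 (114 to 123) and 179 (173 to 186) CPM, which is a log2 ratio of 0.60 (0.52 to 0.67). Under 100 UMIs were read in the remaining gates of the 17. There Tap2 had 61.6 and 129.7 CPM in B cells, 21.2 and 44.2 CPM in mast cells or basophils, and 121 and 108 CPM in neutrophils. Neutrophils were the 1 gate of the 17 in which library 2 was lower. In 7 gates recomputed under the alternatives (cDC2, Cxcl9 and Mrc1/Folr2/Pf4 macrophages, classical and Inhba/Thbs1 monocytes, NK and CD8 T cells), the log2 ratio stayed positive under every alternative tried, from 0.25 in Mrc1/Folr2/Pf4 macrophages to 1.20 in Cxcl9 macrophages, both with thinned cells. Its partner Tap1, from the same heterodimer, had at least 100 UMIs in 15 of the 17 gates. It was called higher in 1 of them, Cxcl9 macrophages, and lower in 1, neutrophils, with a median of 0.13. Tap1 was also called lower in the few plasmacytoid dendritic cells, outside the 17. Psmb9, which shares its start region with Tap1, was called higher in 4 of 17 gates, with a median of 0.18.

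H2-Q6 went the other way. It was lower in library 2 in 13 of 13 gates, past the calling threshold in 5 of them, with log2 ratios from -0.72 in classical monocytes to -0.10 in CD8 T cells. With the marker minimums of each gate doubled, the direction turned in Inhba/Thbs1 monocytes, to 0.25, and in Cxcl9 macrophages, to 0.30. H2-Q7, its near-identical neighbour, was lower in the 3 monocyte gates, at -0.33 in classical monocytes, and higher in NK and CD8 T cells, at 0.20 and 0.21. Counted together, H2-Q6 and H2-Q7 had 442 and 331 CPM in classical monocytes, a log2 ratio of -0.41 (-0.54 to -0.29), and 1359.7 and 1516 CPM in CD8 T cells, 0.16 (0.13 to 0.18). NK cells had 1 of 24 tested class I genes higher, Tap2, and 0 lower, against 8.12% and 5.56% of all tested genes, and CD8 T cells had 2 of 24 higher, H2-T22 and Tap2, and 0 lower, against 9.50% and 7.62%, so neither count stands above the share over all genes.

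**Figure D5:**
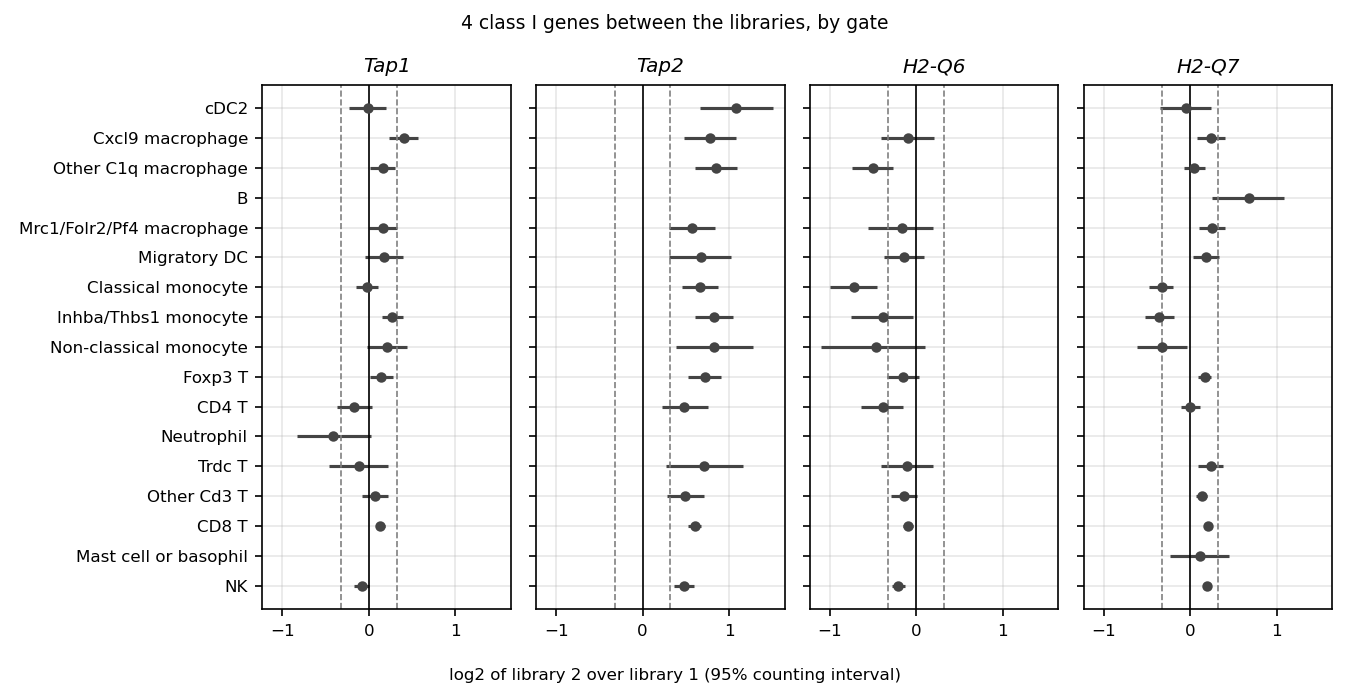
Log2 ratio of library 2 over library 1 for Tap1, Tap2, H2-Q6 and H2-Q7, with 95% counting intervals. Shown are those of the 17 gates where the gene had at least 100 UMIs over both libraries. A solid line marks no difference and dashed lines mark the calling threshold. All 14 points of Tap2 lie to the right of the upper dashed line (0.48 to 1.08) and all 13 points of H2-Q6 lie left of the solid line (-0.72 to -0.10).

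Other genes of the pathway, 39 found of 40 listed, were called in small numbers, in most gates near or below the share over all tested genes. In cDC2, 2 of 21 tested were higher in library 2 (Irf1 and Irf8) and 1 lower (Jak1), against 12.7% and 12.7% of all tested genes. In Cxcl9 macrophages 1 of 25 was higher (Irf1) and 3 lower (Creb1, Hspa5 and Npepps), against 15.6% and 11.5%. In Mrc1/Folr2/Pf4 macrophages 3 of 29 were higher (Jak2, Ctsl and Npepps) and 3 lower (Nfya, Irf1 and Hspa5), against 12.4% and 11.4%. Classical monocytes had 1 of 31 higher (Irf1) and 2 lower (Creb1 and H2-T10), against 9.95% and 7.74%. Inhba/Thbs1 monocytes had 3 of 30 higher (Creb1, Ifngr1 and Marchf1) and 3 lower (Ctsb, Hspa5 and H2-T24), against 16.3% and 9.49%. Non-classical monocytes had 1 of 25 higher (Irf1) and 1 lower (Ctsd), against 12.1% and 9.74%. In NK cells 1 of 32 was higher (Ctsl) and 4 lower (Spi1, Lgmn, H2-Q10 and H2-T24), against 8.12% and 5.56%, and in CD8 T cells 2 of 34 were higher (Irf1 and Socs1) and 1 lower (Spi1), against 9.50% and 7.62%.

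Irf1, an interferon-induced activator of class I genes, was the pathway gene outside the list called in most gates. It had at least 100 UMIs in 16 of the 17 gates with at least 50 cells in each library. In these it was called higher in library 2 in 8 and lower in 1, with a median log2 ratio of 0.32. The 8 gates with higher Irf1 were cDC2, Cxcl9 macrophages, classical and non-classical monocytes, mast cells or basophils, and CD8, CD4 and Foxp3 T cells. Irf1 was also called higher in the few cDC1, outside the 17. Irf1 had 254 and 379.9 CPM in cDC2, a log2 ratio of 0.58 (0.36 to 0.81). In Mrc1/Folr2/Pf4 macrophages, the gate with lower Irf1, it had 152 and 115 CPM, or -0.40 (-0.63 to -0.18) as a log2 ratio. Socs1, a feedback inhibitor of cytokine signalling, was called higher in 4 of 14 gates, the CD8, CD4, Foxp3 and other T cells, and lower in 1, the remaining C1q macrophages. CD8 T cells had 115 and 161 CPM of Socs1, or 0.48 (0.40 to 0.56) as a log2 ratio. Rfx5 stayed under the 100 UMIs needed in the gates named here other than NK and CD8 T cells, where its log2 ratio was 0.07 and 0.24.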

How the data were processed

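The authors deposited 1 matrix of raw UMI counts per gene and cell barcode for both samples, made with Cell Ranger 6.1.2 on build mm10, per the submitters' processing notes. The gene annotation, and any subsampling of reads on joining the libraries, are not given in the sources used here. Cells under 500 genes, or over 10% in mitochondrial UMIs, were left out. Gates were set by minimum UMIs of marker lists that hold no member. The minimums were chosen after marker counts had been seen, and the rule that makes cells with dendritic cell or monocyte markers beside T or NK cell markers mixed was set after class II values had been seen. Mixed cells were left out and no doublet caller was run. The members and lists were chosen with earlier results of these data known. All 36 members are named, other pathway genes where they passed the calling threshold in the 8 gates whose counts are given (with Rfx5 and Irf1; Socs1 was followed over further gates after its values were seen), and the 10 genes outside the list most like each core among genes at 50 CPM or more in a gate, of which 1 is not reported here.

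UMIs were summed per gate and library and given as CPM. Levels have exact Poisson, shares Clopper-Pearson and ratios conditional binomial intervals at 95%, with a pseudocount of 0.5 UMIs in log2 ratios. Shares were read after thinning each cell to 3000 UMIs (seed 1), which left out 567 and 456 shallower cells. With 1 library of each kind there is no test across libraries. The calling of ratios was tried on simulated counts of all macrophages that held counting error only, with no spread between cells or libraries. Of 200 genes changed 2-fold, 100% were called in the right direction, and 6.70% of unchanged genes also passed the calling threshold. Alternatives were doubled marker minimums, stricter and no cell filters, thinning, scaling without ribosomal protein and mitochondrial genes, edgeR TMM factors, equal weight per cell, and other thresholds. Python 3.11.15, numpy 2.4.6, scipy 1.17.1, pandas 2.3.3, R 4.3.3 and edgeR 4.0.16 were used.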

Additional observations from a re-analysis of the deposited data

Results flagged for a closer look

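The class II set differed between the libraries in opposite directions by cell type. On the log2 scale, library 2 against library 1 stood at 0.62 in Inhba/Thbs1 monocytes and 0.50 in Mrc1/Folr2/Pf4 macrophages, and -0.41 in NK cells. The lower level was not particular to NK cells. Class II stood at 2149.7 and 1513 CPM in Trdc T cells and 1925 and 1412 CPM in other T cells. CD4 T cells had 3419 and 2808 CPM, and neutrophils 3849 and 2049 CPM. The difference between these gates was not tested, since each library is 1 sample. In NK cells the C1q genes moved with the class II genes, at 94.0 and 33 CPM, and their part in the ratio was not tested. C1qa was also lower in library 2 in other gates, such as Inhba/Thbs1 monocytes, at 51.4 and 22.3 CPM, where class II was higher.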

How the results depend on the processing

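No paired analysis was possible because each library is 1 sample and no label ties a library to a genotype. The class II level of all macrophages, 34012 and 38699 CPM, was 33545 and 38437 CPM with doubled marker minimums, 34254 and 38408 CPM thinned, 40549.9 and 44852 CPM when scaled without ribosomal protein and mitochondrial genes, and 34138 CPM in library 1 with the stricter cell filter. Their class I level, 14889 and 16866 CPM, was 15704 and 17271 CPM thinned, 17751 and 19547 CPM with that scaling, and 16720.4 CPM in library 2 with doubled minimums. The class II log2 ratio of Mrc1/Folr2/Pf4 macrophages, 0.50, was 0.53 with doubled minimums, 0.45 with that scaling and 0.48 with TMM factors. That of Inhba/Thbs1 monocytes, 0.62, was 0.71 with doubled minimums, 0.53 with TMM and 0.59 with equal weight per cell. That of NK cells, -0.41, was -0.58 with doubled minimums, -0.56 thinned, -0.47 with TMM and -0.61 with equal weight, and -0.68 where cells with dendritic cell or monocyte markers were kept, an alternative chosen after seeing the data. The class I ratio of the same macrophages, 0.20, was 0.18 thinned, 0.15 with that scaling and 0.18 with TMM, and in NK cells, 0.07, it was 0.03 with that scaling and 0.02 with TMM. The count of class II genes higher in Mrc1/Folr2/Pf4 macrophages, 6, was 3 at 1.5-fold. The share of NK cells with a class II UMI, 70.4% and 55.0%, was 95.8% and 83.9% unthinned and 3.05% and 1.82% with at least 5 UMIs, and that of macrophages was 95.3% and 96.2% with at least 5. Some single-gene directions turned, and the cause was not tested: H2-Q6 in Inhba/Thbs1 monocytes was 0.25 with doubled minimums, H2-Ab1 in CD8 T cells -0.20 thinned, and H2-DMb2 in CD8 T cells -0.03 with doubled minimums and -0.47 thinned. Of 47 called single-gene ratios, 45 kept their direction with doubled minimums and 45 with thinning, and 38 stayed past the calling threshold in each.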

Other observations

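H2-Ea, the E alpha chain, which is no member and was looked up after class II values had been seen, had 3 and 2 UMIs in all kept cells of library 1 and library 2, whereas its partner H2-Eb1 had 7379 and 7245 CPM in cDC2 alone. Arg1 macrophages, with 19 and 18 cells, had 18876 (18268 to 19499) and 37791 (36912 to 38686) CPM of class II and 12953 and 15715 CPM of class I. The 40 and 12 cDC1 had 12424 and 15524 CPM of class I, and the 21 and 22 plasmacytoid dendritic cells had 18304 and 15401 CPM, the gate with the lowest class I log2 ratio, -0.25 (-0.31 to -0.18). These intervals cover counting error only.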
